A study of Homo sapiens with 12 samples.

Results

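Described here are 40 genes of mitosis in HDLM-2 cells, a long-established line from a human Hodgkin lymphoma. They were given as a list of names, and a gene was taken up when its symbol in the platform annotation was on that list. All 40 had at least 1 named probe among 18852 named genes, and all 40 were among the 13556 genes tested. The 12 Illumina arrays formed 4 groups of 3 arrays (A, B and C), each of cells after 24 h: 10 µM perifosine together with 5 µM sorafenib (the combination), 5 µM sorafenib, 10 µM perifosine, and a control whose label names no treatment. Perifosine is an alkylphospholipid that inhibits AKT signalling, and sorafenib inhibits RAF and several receptor tyrosine kinases. All groups come from 1 lymphoma line, so no normal cell is among them. Of 8 Hodgkin cell markers with a probe, 7 (TNFRSF8, which encodes CD30, with FUT4, CCL17, CCL22, TRAF1, FSCN1 and IRF4) were above background on all 12 arrays. The Hodgkin marker CD70 was above it on 2 arrays. Of the markers of other cells with a probe, 1 of 5 B cell genes (MS4A1), 1 of 7 T cell genes (CD2), 3 of 6 myeloid genes (CSF1R, ITGAM and CD68) and 1 of 6 fibroblast and endothelial genes (PECAM1) were also above it on all 12, while PAX5, CD22, CD5, MPO and VWF were on 0 arrays. The rest lay between, from 1 array (CD4, CD8A and COL1A2) to 10 arrays (CD14 and LYZ). In the averaged sorafenib effect defined below, 3 of 7 tested Hodgkin markers rose, namely CCL17 (0.54 ± 0.09), TRAF1 (0.53 ± 0.09) and FSCN1 (0.43 ± 0.08), and 0 fell, with a median of 0.43 over the 7 and with TNFRSF8 at -0.28 ± 0.11 (adjusted p = 0.22). By the same rule, 349 of all 13556 genes rose and 163 fell. Of the tested markers of other cells, 0 were called, and ITGAM alone had an unadjusted p under 0.05, with a change of 0.24 ± 0.08. The part of these marker differences in the results below was not tested.

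Cells enter mitosis when cyclin B binds CDK1 and CDC25 phosphatases remove the inhibitory phosphates. Aurora and Polo-like kinases then build the spindle, and the spindle assembly checkpoint holds the anaphase-promoting complex back until every kinetochore is attached. Most of these genes are transcribed late in the cycle, in G2 and M, under FOXM1 and the MuvB complex, whereas the genes of DNA replication peak earlier, around the start of S phase, under E2F factors. The question put to the data was whether the mitosis genes went down along with S-phase genes after sorafenib. In bulk RNA, fewer cells in mitosis and less of these mRNAs per cell cannot be told apart.

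The mitosis genes showed no called change in any comparison. Beside the contrasts of 2 groups, sorafenib was also compared with no sorafenib in 1 estimate. This is the mean of 2 differences, sorafenib minus control and combination minus perifosine, and is called the averaged sorafenib effect. In that effect 29 of the 40 genes lay below 0 and their median log2 change was -0.06, while 6907 of all 13556 genes lay below 0, with a median of 0.00. With genes called at an adjusted p under 0.05 (limma, Benjamini-Hochberg over 13556 genes), 0 of 40 were called, beside 3.78% of all genes. At an unadjusted p under 0.05 there were 4 of 40, which is 10%, beside 18.0% of all genes. The 4 were INCENP, PLK1 and BUB1B on the lower side and CDC25B on the higher side.

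The intervals bound the size of a change on the probe used for each gene, and they do not cover the other probes. Of those, a CENPE probe gave -0.50 and a BUB3 probe 0.56 in sorafenib against control. On the probes used, the 95% interval of the averaged sorafenib effect lay within a 1.5-fold change in either direction for all 40 genes. In each contrast of 2 groups, all 40 intervals lay within a 2-fold change, and between 36 and 39 of them lay within 1.5-fold. The median half-width was 0.27 on the log2 scale for a contrast of 2 groups and 0.19 for the averaged effect. The residual SD of the 40 genes between arrays of a group had a median of 0.14 (range 0.06 to 0.35), against 0.18 for all genes. The labels do not say whether the arrays A, B and C of a group are separate cultures, and the spread behind these p-values and intervals may therefore be technical.

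**Figure D1:**
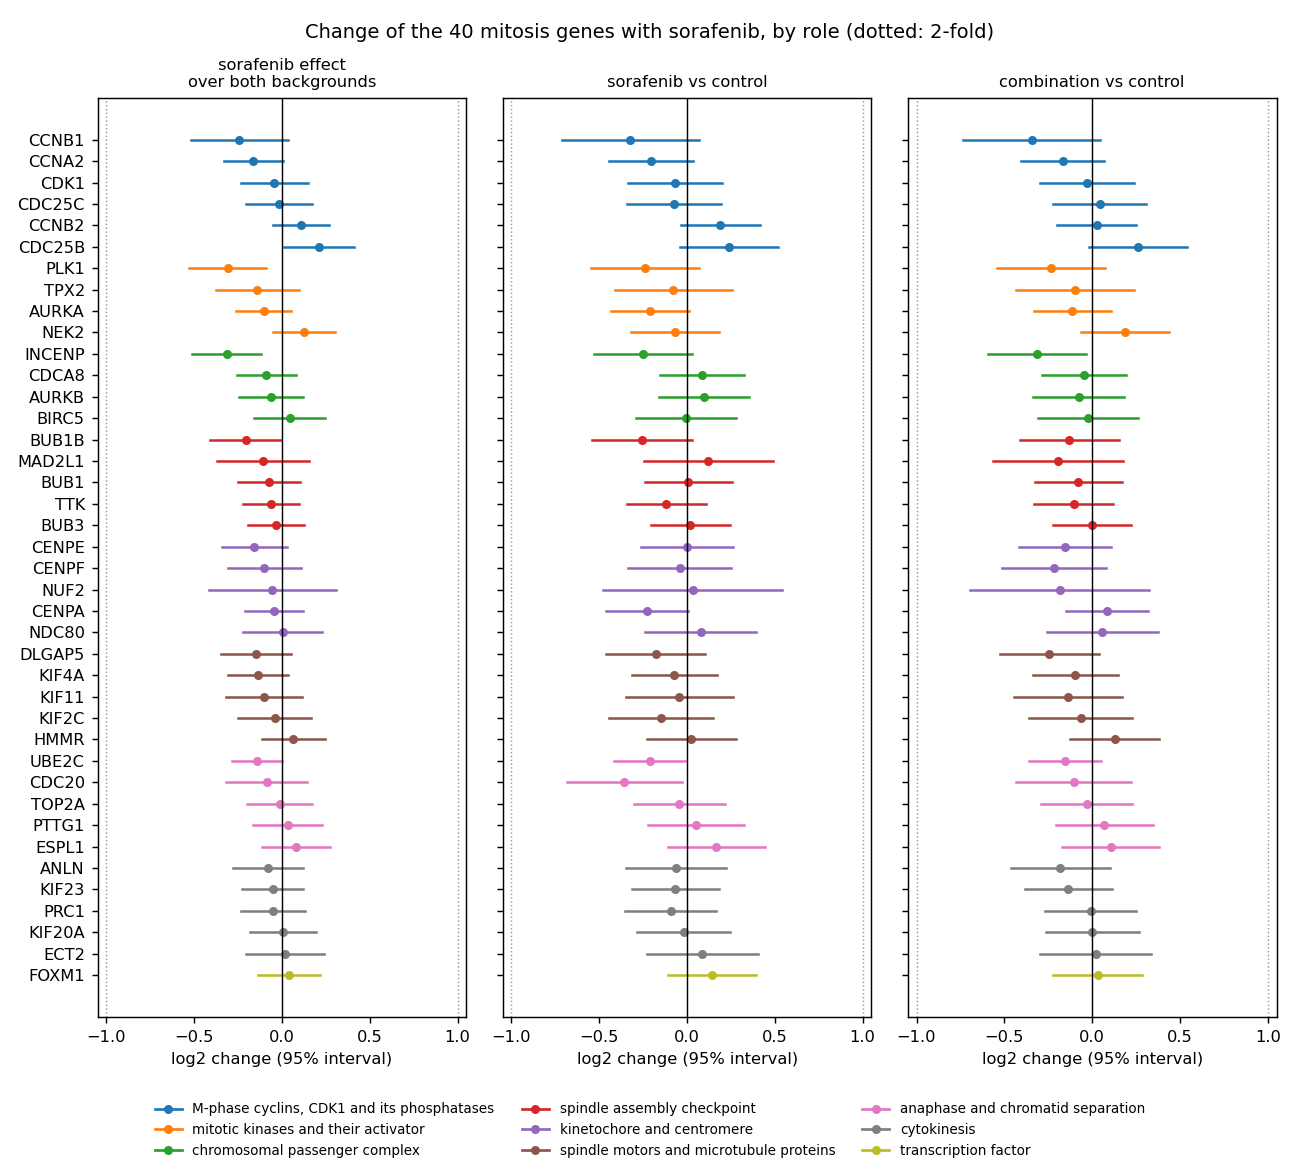
Log2 change (points) with its 95% interval (lines) of each of the 40 mitosis genes, ordered by role and coloured by it, in the averaged sorafenib effect, in sorafenib against control and in the combination against control; dotted lines mark 2-fold. No interval reaches 2-fold, and 29 of 40 points lie below 0 in the averaged effect, from -0.31 for INCENP to 0.21 for CDC25B.

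The promoters of mitosis and S-phase genes carry different short motifs, and a few are shown here because the comparison turns on these 2 classes. RefSeq windows (GRCh38.p14) from 250 bases before to 50 bases after the start were matched for 33 of the 40 genes. The cell cycle homology region (CHR, searched as TTTGAA on both strands) is bound by MuvB complexes, CCAAT boxes (CCAAT, both strands) by NF-Y, and E2F sites were searched as TTTCCCGC, TTTGGCGC, TTTGCCGC and TTTCGCGC on both strands. TTTGAA stood in 22 of the 33 windows (66.7%), against 3 of 50 S-phase genes (6.0%) and 15.4% of all 27305 genes in the table. The E2F letters stood in 2 of 33 windows (6.06%), against 20 of 50 S-phase genes (40%) and 3.33% of all genes. CCAAT stood in 25 of 33 (75.8%), against 28 of 50 (56.0%) and 35.7%. Letters of these motifs can overlap, and a match is only a match of letters. Printed below are the windows of the genes with the lowest averaged sorafenib effect, PLK1 at chr16:23678799-23678908 (plus strand) and INCENP at chr11:62123891-62124030 (plus strand). Beside them stand CDC20 at chr1:43358871-43359000 (plus strand) and CCNB1 at chr5:69167050-69167169 (plus strand). On the probes used, CDC20 was the lowest with sorafenib alone and CCNB1 the lowest in the combination. MCM6, an S-phase helicase subunit at chr2:135876424-135876603 (minus strand), serves as contrast and was chosen after its sequence was seen. Each stretch ends 20 bases after the start, runs 5′ to 3′ along the gene, and has CHR, CCAAT and E2F letters in capitals.
PLK1: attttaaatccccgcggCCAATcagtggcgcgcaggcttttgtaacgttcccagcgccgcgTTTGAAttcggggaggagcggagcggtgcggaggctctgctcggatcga
INCENP: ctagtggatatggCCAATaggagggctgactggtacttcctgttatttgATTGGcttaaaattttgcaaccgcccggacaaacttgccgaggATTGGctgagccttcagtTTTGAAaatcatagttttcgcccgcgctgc
CDC20: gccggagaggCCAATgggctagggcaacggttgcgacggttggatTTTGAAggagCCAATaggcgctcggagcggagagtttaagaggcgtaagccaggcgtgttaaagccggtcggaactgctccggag
CCNB1: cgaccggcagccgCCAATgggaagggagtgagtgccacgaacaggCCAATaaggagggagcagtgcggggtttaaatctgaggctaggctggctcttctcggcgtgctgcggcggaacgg
MCM6: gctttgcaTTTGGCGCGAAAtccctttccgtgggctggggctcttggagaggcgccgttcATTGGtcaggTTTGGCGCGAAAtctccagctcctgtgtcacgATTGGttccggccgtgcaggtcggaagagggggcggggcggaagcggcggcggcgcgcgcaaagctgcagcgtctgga

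PLK1, INCENP and CDC20 hold TTTGAA in these stretches, and CCNB1 holds CCAAT without TTTGAA. In MCM6 the E2F letters occur at 2 places, each read on both strands with an overlap. Of the 22 mitosis genes with TTTGAA, 19 have it between 60 bases before and 50 bases after the start. Their median averaged sorafenib effect was -0.07, with 17 of 22 below 0, and that of the 11 matched genes without it was -0.04, with 7 of 11 below 0. Only 33 genes enter here, and no difference between these medians was tested.

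Among the cyclins and CDK1 with its phosphatases, 0 of 6 were called and 4 lay below 0 in the averaged sorafenib effect. CCNB1, the cyclin that drives entry into mitosis, had log2 signals of 10.80, 10.51 and 10.80 in the combination, 10.29, 10.82 and 11.07 after sorafenib, 10.69, 11.13 and 10.79 after perifosine, and 11.10, 10.96 and 11.09 in the control. All 3 combination arrays lay below all 3 control arrays, but the sorafenib arrays were widely spread and reached the control range. The change was -0.34 ± 0.18 (SE) in the combination and -0.32 ± 0.18 after sorafenib, against the control (adjusted p = 0.482 and adjusted p = 0.432). CCNA2, the cyclin of S phase and early mitosis, had 13.18, 13.11 and 12.88 in the combination, 12.95, 12.93 and 13.18 after sorafenib, 13.21, 13.19 and 13.13 after perifosine, and 13.23, 13.18 and 13.26 in the control. Its averaged sorafenib effect was -0.16 ± 0.08 (adjusted p = 0.297). CDK1, their kinase partner, stayed between 13.22 and 13.65 on all 12 arrays, with 13.22, 13.45 and 13.51 in the combination, 13.29, 13.30 and 13.47 after sorafenib, 13.29, 13.65 and 13.31 after perifosine, and 13.49, 13.37 and 13.41 in the control. The 4 groups of CDK1 overlapped, and its averaged effect was -0.04 ± 0.09 (adjusted p = 0.846).

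CDC25B and CCNB2 had positive changes. CDC25B, a phosphatase that starts CDK1 activation, had log2 signals of 12.77, 12.49 and 13.01 in the combination, 12.72, 12.79 and 12.69 after sorafenib, 12.51, 12.62 and 12.61 after perifosine, and 12.64, 12.47 and 12.38 in the control. The sorafenib arrays lay above the control arrays, and combination B lay within the control range. The averaged effect was 0.21 ± 0.09, the highest of the 40 (adjusted p = 0.255). CCNB2, the second B-type cyclin, had 13.47, 13.57 and 13.34 in the combination, 13.61, 13.69 and 13.57 after sorafenib, 13.49, 13.32 and 13.49 after perifosine, and 13.49, 13.34 and 13.47 in the control. Its sorafenib arrays were above all control arrays, by 0.19 ± 0.10 on average (adjusted p = 0.424), and its combination arrays were not. CDC25C, the phosphatase that completes activation, had an averaged effect of -0.02 ± 0.09.

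Of the mitotic kinases and the Aurora A activator TPX2, 0 of 4 were called. PLK1, the Polo-like kinase of spindle assembly and mitotic exit, had log2 signals of 9.27, 9.73 and 9.57 in the combination, 9.71, 9.36 and 9.48 after sorafenib, 9.80, 10.07 and 9.83 after perifosine, and 9.73, 9.64 and 9.89 in the control. The combination arrays lay below the perifosine arrays, but sorafenib A and combination B reached the control range. The averaged effect was -0.31 ± 0.10 (adjusted p = 0.115), with an interval of -0.53 to -0.09. AURKA, the kinase of spindle poles, had 11.79, 11.84 and 12.03 in the combination, 11.78, 11.84 and 11.74 after sorafenib, 11.92, 11.89 and 11.82 after perifosine, and 12.07, 12.04 and 11.89 in the control. Sorafenib alone lay below the control on all arrays (-0.21 ± 0.10, adjusted p = 0.356), and combination C did not. NEK2, a kinase of centrosome separation, had 11.90, 12.05 and 12.01 in the combination, 11.77, 11.76 and 11.66 after sorafenib, 11.58, 11.80 and 11.61 after perifosine, and 11.76 and 11.63 on control A and B. Its combination arrays were above all arrays of both single agents, while control C lay within the combination range.

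The chromosomal passenger complex carries Aurora B to centromeres and the midzone, and INCENP, its scaffold, had the lowest averaged sorafenib effect of the 40. INCENP had log2 signals of 10.00, 9.45 and 9.66 in the combination, 9.84, 9.68 and 9.78 after sorafenib, 10.06, 10.11 and 10.08 after perifosine, and 9.97, 10.10 and 9.99 in the control. Combination A lay within the control range, and the other 5 arrays with sorafenib lay below all 6 arrays without it. The averaged effect was -0.31 ± 0.09, with an interval of -0.51 to -0.12 and an adjusted p of 0.0792. This adjusted p ranged from 0.0248 to 0.163 over 22 alternative settings and was lowest without combination A. A second INCENP probe, above background on 10 arrays, gave -0.21. The other subunits did not share this size. AURKB had 11.34, 11.09 and 11.13 in the combination, 11.14, 11.51 and 11.43 after sorafenib, 11.43, 11.35 and 11.44 after perifosine, and 11.34, 11.29 and 11.17 in the control. BIRC5, which encodes survivin, had 11.45, 11.65 and 11.55 in the combination, 11.64, 11.58 and 11.50 after sorafenib, 11.51, 11.27 and 11.61 after perifosine, and 11.72, 11.32 and 11.70 in the control. The AURKB arrays of the combination and of the control all lay below those of perifosine. Both did so only just, with combination A and control A at 11.34 against 11.35 on perifosine B. All groups of BIRC5 overlapped, with averaged effects of -0.06 ± 0.08 for AURKB and 0.04 ± 0.09 for BIRC5, and that of CDCA8, which encodes borealin, was -0.09 ± 0.08.

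**Figure D2:**
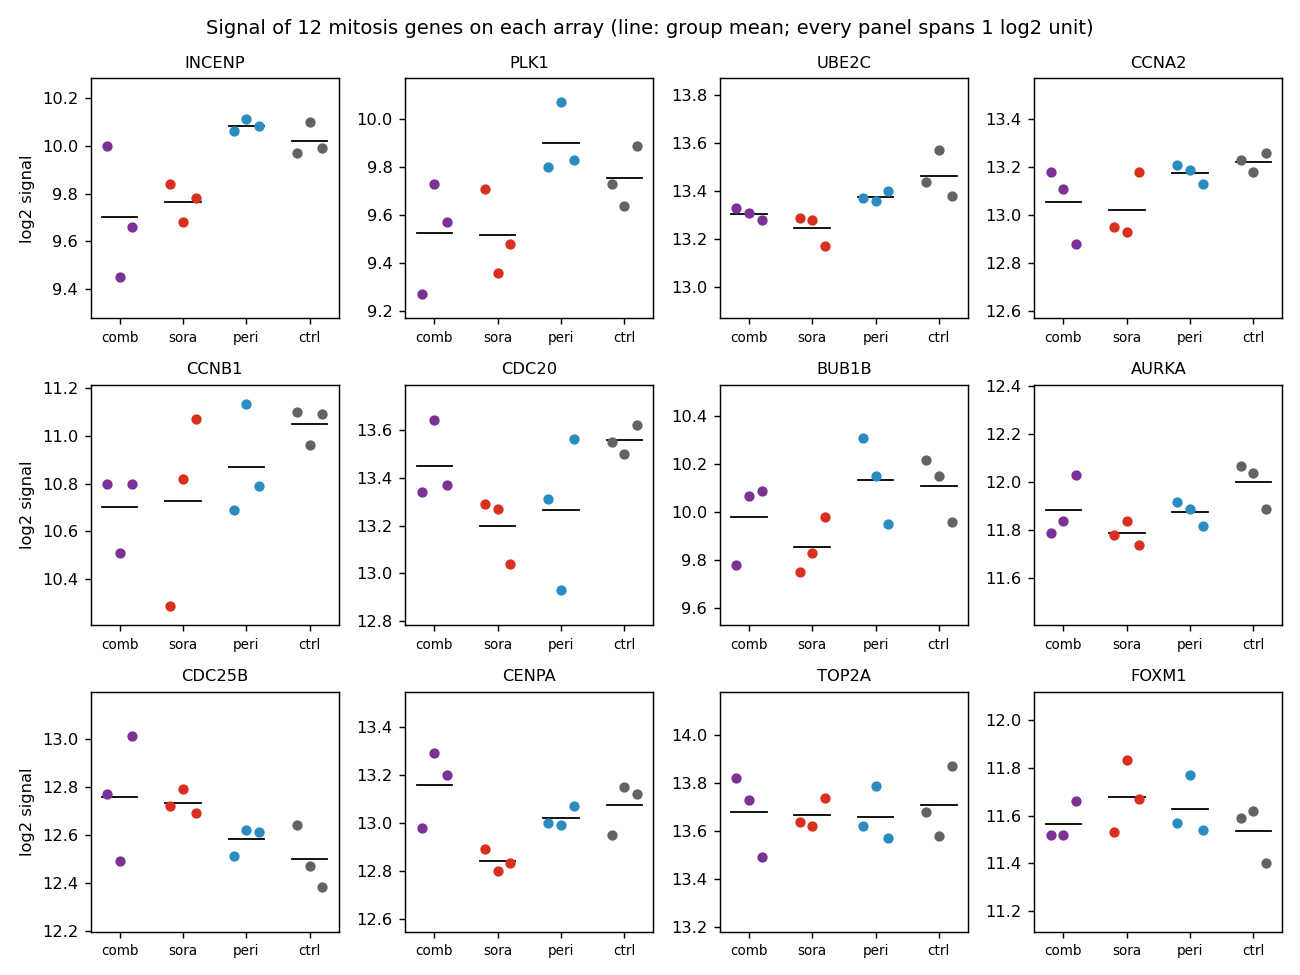
Log2 signal of 12 mitosis genes on each of the 12 arrays (points) with the group mean (line), for the combination (comb), sorafenib (sora), perifosine (peri) and control (ctrl), each panel spanning 1 log2 unit. For INCENP, 5 of the 6 arrays with sorafenib lie below all 6 without it, and combination A is the exception at 10.00; the 4 groups of TOP2A and FOXM1 overlap.

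On the probes used, all 5 genes of the spindle assembly checkpoint lay below 0 in the averaged effect, and 0 were called. Other probes of BUB3 gave 0.22, 0.21 and -0.21. BUB1B, which encodes BUBR1, a part of the inhibitor of the anaphase-promoting complex, had log2 signals of 9.78, 10.07 and 10.09 in the combination, 9.75, 9.83 and 9.98 after sorafenib, 10.31, 10.15 and 9.95 after perifosine, and 10.22, 10.15 and 9.96 in the control. The groups overlapped on single arrays, and the averaged effect was -0.21 ± 0.09 (adjusted p = 0.258). MAD2L1, BUB1, TTK and BUB3 had averaged effects of -0.11, -0.07, -0.06 and -0.03. MAD2L1, the checkpoint protein MAD2, stood at 13.80 on sorafenib C and 13.83 on perifosine B, and between 12.93 and 13.46 on the other 10 arrays.

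The 5 kinetochore and centromere genes had averaged effects between -0.16 (CENPE, a kinetochore motor) and 0.00 (NDC80, which binds microtubules), and 0 were called. CENPA, the histone variant of centromeres, had log2 signals of 12.98, 13.29 and 13.20 in the combination, 12.89, 12.80 and 12.83 after sorafenib, 13.00, 12.99 and 13.07 after perifosine, and 12.95, 13.15 and 13.12 in the control. Its 3 sorafenib arrays were the lowest of the 12 on this probe. On it the combination minus sorafenib was 0.32 ± 0.11 (adjusted p = 0.809) and sorafenib minus control -0.23 ± 0.11, but a second CENPA probe gave -0.02 and 0.05. The averaged sorafenib effect was -0.05 ± 0.08. CENPF, another kinetochore protein, lay lower in the combination than in the control on all arrays, with a change of -0.22 ± 0.14 (adjusted p = 0.574), and NUF2, a partner of NDC80, had the widest interval in the averaged effect, from -0.42 to 0.31.

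Spindle motors and microtubule proteins gave the same picture, with 4 of 5 below 0 and 0 called. DLGAP5, a spindle assembly factor, had log2 signals of 12.07, 12.17 and 12.33 in the combination, 12.23, 12.29 and 12.24 after sorafenib, 12.28, 12.56 and 12.07 after perifosine, and 12.46, 12.54 and 12.30 in the control. Its sorafenib arrays lay just below the lowest control array, combination C did not, and the perifosine arrays covered the whole range. HMMR, a spindle protein that also binds hyaluronan, had 13.31, 13.41 and 13.34 in the combination, 13.14, 13.38 and 13.22 after sorafenib, 13.37, 13.15 and 13.23 after perifosine, and 13.25, 13.04 and 13.39 in the control. HMMR was the only one of the 5 above 0 in the averaged effect, at 0.06 ± 0.08, and its groups overlapped. The motors KIF4A, KIF11 (Eg5) and KIF2C, a microtubule depolymerase, had -0.14 ± 0.08, -0.10 ± 0.10 and -0.04 ± 0.10.

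Among the genes of anaphase and chromatid separation, 0 of 5 were called. CDC20, the activator of the anaphase-promoting complex, had the lowest change with sorafenib alone on the probes used for the 40 genes. It did not pass the test, and a second CENPE probe was lower at -0.50. Its log2 signals were 13.34, 13.64 and 13.37 in the combination, 13.29, 13.27 and 13.04 after sorafenib, 13.31, 12.93 and 13.56 after perifosine, and 13.55, 13.50 and 13.62 in the control. Sorafenib lay below the control on all arrays, with a change of -0.36 ± 0.15 (adjusted p = 0.29), and combination B was above every control array. UBE2C, the ubiquitin-conjugating enzyme of the same complex, had 13.33, 13.31 and 13.28 in the combination, 13.29, 13.28 and 13.17 after sorafenib, 13.37, 13.36 and 13.40 after perifosine, and 13.44, 13.57 and 13.38 in the control. It was the only one of the 40 whose 6 arrays with sorafenib all lay below its 6 arrays without, beside 1.39% of all genes, and was singled out after its values were seen. The averaged effect was -0.14 ± 0.07 (adjusted p = 0.288), and a second probe also gave -0.14, though -0.02 in the combination against control, where the probe used gave -0.16. ESPL1, the separase that cleaves cohesin, had 9.84, 9.65 and 9.97 in the combination, 9.90, 9.79 and 9.96 after sorafenib, 9.59, 9.94 and 9.94 after perifosine, and 9.82, 9.71 and 9.60 in the control, with an averaged effect of 0.08 ± 0.09. TOP2A, the topoisomerase that untangles chromatids, had 13.82, 13.73 and 13.49 in the combination, 13.64, 13.62 and 13.74 after sorafenib, 13.62, 13.79 and 13.57 after perifosine, and 13.68, 13.58 and 13.87 in the control. The groups of TOP2A overlapped, and its averaged effect was -0.01 ± 0.09, with an interval of -0.20 to 0.17. PTTG1, the separase inhibitor securin, had the highest signals, between 14.59 and 15.04, and has near-identical gene copies that its probes could also detect.

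The 5 cytokinesis genes, namely ANLN (anillin), KIF23, PRC1, KIF20A and ECT2, stayed within -0.08 and 0.02 in the averaged effect, and 0 were called. FOXM1, the transcription factor that activates many of these genes, had log2 signals of 11.52, 11.52 and 11.66 in the combination, 11.53, 11.83 and 11.67 after sorafenib, 11.57, 11.77 and 11.54 after perifosine, and 11.59, 11.62 and 11.40 in the control. Its groups overlapped, and its averaged effect was 0.04 ± 0.08 (adjusted p = 0.85).

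Each contrast of 2 groups also gave 0 calls among the 40. In sorafenib against control, 0 of 40 were called beside 0.819% of all genes, and 2 of 40 (5%, CDC20 and UBE2C, both lower) had an unadjusted p under 0.05 beside 15.0%. The median change was -0.05, and 26 of 40 lay below 0. It was -0.03 without control A and -0.08 without control B. In the combination against control, 0 of 40 were called beside 0.627%, and INCENP alone (2.5%) had an unadjusted p under 0.05 beside 12.1%, with a median of -0.08 and 28 below 0. These contrasts share the control arrays. In perifosine against control, 0 genes of 13556 were called (0%), and 0 of 40 mitosis genes had an unadjusted p under 0.05 beside 4.01%. The median of the 40 was 0.00, with 20 below 0 and changes between -0.29 (CDC20) and 0.22 (CDCA8).

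Complete separation of the arrays is given here beside the share of all genes. The counts are small, the contrasts with the control share its arrays, and no difference from the share of all genes was tested. In sorafenib against control, 7 of 40 (17.5%) lay lower on every array (AURKA, INCENP, CENPA, KIF2C, DLGAP5, CDC20 and UBE2C) beside 10.3% of all genes, and 2 (5%) lay higher (CCNB2 and CDC25B) beside 11.4%. In the combination against control, 6 (15%) lay lower (CCNA2, CCNB1, CENPF, KIF11, UBE2C and ANLN) beside 9.39% of all genes, and 0 lay higher beside 11.1%. UBE2C was on both lists. Over all 6 arrays with and all 6 without sorafenib, 1 of 40 (2.5%) lay lower beside 1.39%, and 0 lay higher beside 2.59%.

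The combination was also set against each single agent. Against perifosine, 0 of 40 were called beside 0.716% of all genes, and 5 (12.5%) had an unadjusted p under 0.05 beside 13.3%. Of these, PLK1 (-0.38 ± 0.14), INCENP (-0.38 ± 0.13), CENPE (-0.32 ± 0.12) and CDCA8 (-0.26 ± 0.11) were lower and NEK2 (0.32 ± 0.12) was higher. The second probes of these genes gave -0.08 for INCENP, 0.11 for NEK2 and, with the opposite sign, 0.18 for CENPE. The median of the 40 was -0.07, but it was -0.01 without perifosine B and -0.11 without perifosine C. Against sorafenib, 0 genes were called (0%), and 2 of 40, CENPA and NEK2 (0.26 ± 0.12), had an unadjusted p under 0.05, both higher, beside 6.05%. The second probes gave -0.02 for CENPA and 0.16 for NEK2.

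Whether the change with sorafenib differed between cells with and without perifosine was asked by the interaction, in which 0 genes were called (0%). An unadjusted p under 0.05 was found for 4 of 40 (10%) beside 7.58% of all genes, with CDC20, NEK2 and CENPA higher and CDCA8 lower. For CENPA the second probe turned the sign, at -0.11 against 0.37, and for NEK2 it gave 0.31 against 0.39. The largest was CDC20 at 0.54 ± 0.21 (adjusted p = 0.612), with changes against the control of -0.11 with both agents, -0.36 with sorafenib and -0.29 with perifosine. The interval of an interaction is wide, with a median half-width of 0.38. In the F test for any difference among the 4 groups, 0 of 40 were called beside 0.959% of all genes, and 2 had an unadjusted p under 0.05 beside 13.0%.

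The S-phase genes had a lower median with sorafenib than the mitosis genes, and 1 of 55 and 0 of 40 were called. Of 55 S-phase genes tested (replication licensing, polymerases and nucleotide synthesis), 50 lay below 0 in the averaged sorafenib effect, with a median of -0.14 against -0.06 for the 40 mitosis genes. At an unadjusted p under 0.05, 13 of the 55 were lower and 0 higher, beside 1143 lower and 1303 higher among all 13556 genes. RRM2, the inducible subunit of ribonucleotide reductase, was the 1 of 55 called, a share below the 3.78% of all genes, and it fell by 0.58 on the log2 scale (SE 0.09, adjusted p = 0.00479). RRM2 had 13.17, 13.41 and 13.11 in the combination, 13.28, 13.02 and 13.26 after sorafenib, 13.67, 13.70 and 13.79 after perifosine, and 13.91, 13.60 and 14.03 in the control. Its 6 arrays with sorafenib all lay below its 6 without. Such a gap was seen in 3 of the 55 S-phase genes and in 1 of the 40 mitosis genes, beside 1.39% of all genes. In sorafenib against control, 15 of the 55 lay lower on every array and 1 higher, against 7 and 2 of the 40, beside 10.3% and 11.4% of all genes. In the combination against control, 18 of the 55 lay lower and 0 higher, against 6 and 0 of the 40, beside 9.39% and 11.1%. Both contrasts share the control arrays. No difference between these shares was tested. MCM2, a subunit of the replicative helicase, had a change of -0.26 ± 0.09 (adjusted p = 0.124), MCM6 one of -0.10 ± 0.09 (adjusted p = 0.627), and PCNA, the sliding clamp, one of -0.09 ± 0.09 (adjusted p = 0.666).

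The mean of each class on each array shows the same order. Averaged over the 40 mitosis genes, the deviation from each gene's mean over 12 arrays was -0.057, -0.023 and -0.031 in the combination, -0.039, -0.016 and -0.018 after sorafenib, 0.033, 0.084 and -0.021 after perifosine, and 0.054, 0.007 and 0.027 in the control. Perifosine C lay among the arrays with sorafenib, so the 6 and 6 arrays overlapped. For the 55 S-phase genes the values were -0.087, -0.083 and -0.082 in the combination, -0.047, -0.023 and -0.114 after sorafenib, 0.112, 0.031 and 0.073 after perifosine, and 0.080, 0.054 and 0.086 in the control, and the 6 and 6 arrays did not overlap. The S-phase mean minus the mean of the 40 mitosis genes was below 0 on all 6 arrays with sorafenib, between -0.096 and -0.006. It was above 0 on 5 of the 6 without, between 0.026 and 0.094, the exception being perifosine B at -0.054. The lists were chosen with results of these arrays known, so this gap between them is a description with no test.

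**Figure D3:**
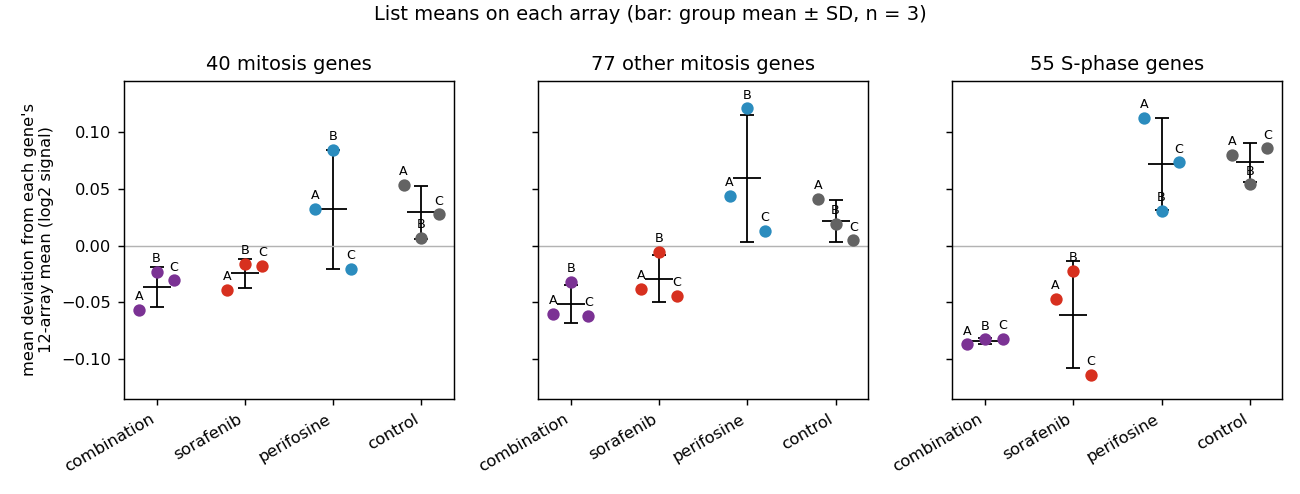
Mean deviation from each gene's 12-array mean, in log2 signal, on each array (points, with the array letter) for the 40 mitosis genes, 77 other mitosis genes and 55 S-phase genes in the 4 groups, with the group mean and SD (bars, n = 3). In the S-phase genes and in the 77 other mitosis genes, the means of the 6 arrays with sorafenib all lie below the other 6. In the 40 mitosis genes perifosine C (-0.021) overlaps them.

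**Figure D4:**
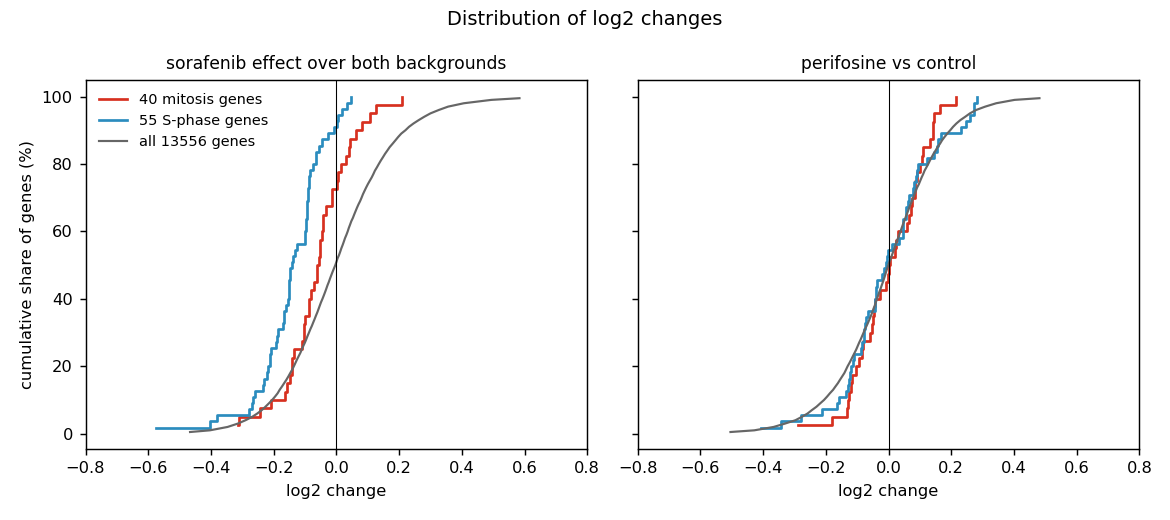
Cumulative share of genes, in percent, by log2 change for the 40 mitosis genes, 55 S-phase genes and all 13556 genes in the averaged sorafenib effect and in perifosine against control. In the averaged effect the medians are -0.06, -0.14 and 0.00; with perifosine alone they are 0.00, -0.01 and 0.00.

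Other genes of the cell cycle framed these values. Of 77 further mitosis genes, 58 lay below 0 in the averaged sorafenib effect, with a median of -0.08. Of these 77, FAM83D, which places a kinase on the spindle, fell by 0.31 (SE 0.07, adjusted p = 0.0386), and 0 rose. This is 1 of 77 called, beside 3.78% of all genes. At an unadjusted p under 0.05, 11 of the 77 were lower and 1 higher, beside 1143 lower and 1303 higher among all 13556 genes. MKI67, the proliferation marker, had a change of -0.10 ± 0.13 (adjusted p = 0.737). The 15 subunits of the anaphase-promoting complex had a median of 0.01 and the 11 cohesin genes one of -0.07, with 0 called in either. Of 9 DREAM and MuvB subunits and MYB factors, 0 were called and the median was -0.06, with MYBL2, above background on 9 arrays, at -0.06 ± 0.10.

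Upstream of S phase, the 16 G1 cyclins, E2F factors and regulators had a median of -0.16. CDC25A, the phosphatase of S-phase entry, fell by 0.40 (SE 0.10, adjusted p = 0.0487), and E2F1 had -0.29 ± 0.11 (adjusted p = 0.195), above background on 8 of 12 arrays. Of 7 CDK inhibitor genes, CDKN2D, which encodes p19, rose by 0.39 (SE 0.08, adjusted p = 0.0193), with 0 falling. These calls are 1 of 16 and 1 of 7, beside 3.78% of all genes. CDKN1A (p21) had -0.07 ± 0.10 and CDKN1B (p27) -0.06 ± 0.09. The 17 p53 targets had a median of 0.01, and 0 were called.

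The probes of a gene did not always give the same value. The 40 genes had 61 probes, all of which passed the filter on dim signal, and the probe used for each gene was above background on all 12 arrays. In the averaged sorafenib effect, both probes gave the same value to 2 decimals for UBE2C, FOXM1, HMMR, KIF11 and CENPE. The 4 probes of BUB3 gave -0.03 (the one used), 0.22, 0.21 and -0.21. The second probe of NEK2 gave -0.04 against 0.13, that of KIF23 gave 0.15 against -0.05, and the third of NUF2 gave 0.21 against -0.05. Smaller differences in sign were seen in BIRC5 (-0.02 against 0.04) and PTTG1 (-0.04 against 0.03). For these 6 genes the direction of the averaged effect depends on the probe. In contrasts of 2 groups more genes differed. In sorafenib against control the second CENPE probe gave -0.50 against 0.00 for the one used, and in the combination against perifosine it turned the sign, as did the second CENPA probe in sorafenib against control.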

How the data were processed

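Biotin-labelled cRNA of HDLM-2 cells was hybridised to Illumina arrays, per the labels' protocols. The deposited values are 1 linear intensity per probe and array for 48803 probes, with BeadStudio as the tool, per the submitters' processing notes; how they were normalized is not given, and array medians of 216.4 to 216.6 show a common scale. A second deposited table has 24 value columns whose names match no sample and was not used. Groups and letters came from the sample titles.

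Intensities were corrected with normexp (offset 16, no control probes), quantile normalized and log2 transformed. A probe was kept if above the background threshold (mode plus the upper 5% point of the dim probes, 224.9 to 225.4) on at least 3 of 12 arrays, which 25143 probes were; 21869 to 22012 probes per array were above it. The platform annotation gave 1 symbol for 28098 probes, several for 13, and did not list 20692; 28059 named probes matched RefSeq. A gene is its kept probe with the highest mean. Array number limits the precision.

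All 12 arrays entered a single limma fit (version 3.58.1, R 4.3.3) with 4 group means, and Benjamini-Hochberg adjustment ran over 13556 genes in each of 8 comparisons; the fit was tested on simulated data. Each of 13 alternative choices was run, including leaving out each array. Same-letter arrays of different groups deviated together at r of -0.24 to 0.21, and arrays of different letters at -0.35 to 0.39. With 3 arrays a group, these values cannot show whether arrays of a letter share a culture or a day. The letters were not used as pairs in the main fit because nothing says what they stand for.

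Named genes are all 40 members, with array values for 11 central members fixed by name and the 4 highest and 4 lowest changes with sorafenib and with the combination, plus called genes of the cell cycle lists and 9 fixed non-members, of which CCNE2 was not tested here. The array values of UBE2C and CENPA, also given in full, fall outside these rules for members. Members and lists were chosen with earlier results of these data known.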

Additional observations from a re-analysis of the deposited data

How the results depend on the processing

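The count of 0 called mitosis genes held in all 8 comparisons under all alternatives, except in the averaged sorafenib effect. There it was 1, INCENP, with only probes above background on all 12 arrays (adjusted p = 0.0422), with array weights (0.0442), with a trended robust prior (0.0443) and without background correction (0.0351); it ranged from 0 to 1 when arrays were left out in turn, being 1 without combination A. The median of the 40 in that effect stayed between -0.0721 and -0.0416 and that of the S-phase genes between -0.152 and -0.122. The median interaction, -0.037, was 0.000783 with array weights and ran from -0.0499 to 0.0146 with arrays left out. The median in the combination against perifosine ran from -0.107 to -0.00673, that of perifosine against control from -0.0114 to 0.0472, and that of sorafenib against control from -0.0754 to -0.0321. The cause of these shifts was not tested.

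Counts over all genes moved more. They ran from 23 (only the groups compared) to 251 (no background correction) in sorafenib against control, from 34 to 209 in the combination against control, from 23 to 289 against perifosine, from 247 to 969 in the averaged effect and from 55 to 300 in the F test, while perifosine against control, the combination against sorafenib and the interaction stayed at 0. With a replicate block on the letters, the called mitosis genes stayed at 0 in all 8 comparisons and the genes called were 48, 54, 45, 346 and 67 in the order given. With 3 arrays a group, the median half-width of 0.27 limits what a contrast of 2 groups can separate from 0.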

Other observations

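Perifosine B stood apart from the other perifosine arrays in several mitosis genes, in both directions, a pattern noticed after the values were seen. NUF2 stood at 10.87 on that array and at 10.02 and 9.81 on perifosine A and C, MAD2L1 at 13.83 against 13.30 and 13.37, and KIF11 at 12.52 against 12.07 and 11.88. On the same array KIF2C stood at 11.14 against 11.69 and 11.64, and CDC20 at 12.93 against 13.31 and 13.56. Over all genes, the deviations of perifosine B from its group mean correlated with those of sorafenib C at r = 0.39, the highest of the pairs between groups (genes are not independent replicates). What sets these arrays apart was not tested.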
